A study of Mus musculus with 69 samples.

Results

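The regions described here carried H3K27ac in haematopoietic stem cells (HSCs) of 5-fluorouracil (5FU)-treated mice of both genotypes and in neither genotype after PBS. A merged autosomal region of the wild-type 5FU list was a member when it overlapped a knockout 5FU region by at least 1 bp and overlapped no region of the knockout PBS or wild-type PBS list. This gave 4067 regions of the 66420 in the wild-type 5FU list, or 6.12%. Members were chosen by H3K27ac peak calls in these 4 lists, so their H3K27ac values are given as a description. With 1 list per group no comparison of treatments could be tested over animals.

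Knockout HSCs came from mice with both Kmt2c alleles conditional and the Vav-Cre transgene, which drives deletion in blood-forming cells and not in HSCs alone. Kmt2c encodes MLL3, a methyltransferase of H3K4. Mice of 16 weeks had received 3 doses of 150 mg/kg 5FU or of PBS, 1 every 3 weeks. The HSC comparisons therefore set knockout 5FU and wild-type 5FU lists against knockout PBS and wild-type PBS lists, and each H3K27ac list came from 3 libraries. The H3K4me1 lists of the same cells came from 4 libraries (knockout 5FU), 6 (wild-type 5FU), 3 (knockout PBS) and 4 (wild-type PBS). The wild-type 5FU list combined 3 libraries of the series labelled s5060, the series of the other 3 lists, with 3 of a series labelled s4902, so the wild-type H3K4me1 comparison differs in series as well as treatment, and the part of each cannot be told apart. Untreated knockout, heterozygous (1 conditional allele, Vav-Cre) and wild-type mice of 8 weeks gave 3 H3K4me1 libraries per group for HSCs and for haematopoietic progenitor cells (HPCs). HPCs of mice aged 8 to 10 weeks gave H3K27ac lists from 4 libraries per group after 3 days of 0.5 µg interleukin-1 (IL-1) per day or of PBS. Libraries of a group were represented by 1 pooled peak list, so no spread between animals can be given, and all intervals below are Wilson 95% intervals that cover counting error only.

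Enhancers are stretches of DNA that raise transcription of nearby genes. They carry H3K4me1 when they are primed or active, and acetylation of H3K27 is added when they are active, while active promoters carry H3K27ac with little H3K4me1. 5FU kills dividing cells, after which the HSCs that were at rest are drawn into the cell cycle and later return to rest.

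Covered bases within marker genes were counted in the 4 H3K27ac lists of HSCs, without scaling by gene length. Between 95107 and 128348 bp within 7 HSC genes, among them Mecom, Hlf and Kit, lay under H3K27ac peaks in each of the 4 lists. Mecom alone held 50334 to 68266 bp, so totals cannot be compared between groups of genes. No HPC list was counted, so these values cannot tell HSCs from progenitors. The erythroid genes Alas2 and Slc4a1 and the B cell gene Ms4a1 held no covered base in any list. Granulocyte genes held 90 to 292 bp and T cell genes 1091 to 1403 bp. The NK genes held 1512 bp in knockout 5FU and 3798 bp in wild-type 5FU, against 663 bp in knockout PBS and 2219 bp in wild-type PBS, all of it in Klrb1c. Stroma and endothelium genes held 1402 and 1795 bp after 5FU, against 1282 and 112 bp after PBS (knockout and wild type in each pair), all of it in Cdh5. The part of such cells in the gained regions was not tested. No member lay within 50 kb of Kmt2c.

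A small subset of the members lay over promoters, and 5 of these are shown with their sequence as examples, with and without motif matches, that differ in H3K4me1, HPC H3K27ac and distance to a PBS region. They were chosen after their values were seen, and their functions stand for no theme among the promoter members. Each window runs from 250 bp before to 50 bp after a RefSeq start site (GRCm38.p6), 5′ to 3′ on the strand given. Capitals mark matches to the motifs that are listed with the promoter counts further on.

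Il6, chr5:30012864-30013163, plus strand: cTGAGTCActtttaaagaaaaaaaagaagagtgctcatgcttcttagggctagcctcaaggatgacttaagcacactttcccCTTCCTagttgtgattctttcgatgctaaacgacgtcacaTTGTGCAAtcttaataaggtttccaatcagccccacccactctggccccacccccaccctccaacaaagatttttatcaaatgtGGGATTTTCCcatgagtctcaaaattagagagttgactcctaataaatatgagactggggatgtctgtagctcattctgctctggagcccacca

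Gpr84, chr15:103310389-103310688, minus strand: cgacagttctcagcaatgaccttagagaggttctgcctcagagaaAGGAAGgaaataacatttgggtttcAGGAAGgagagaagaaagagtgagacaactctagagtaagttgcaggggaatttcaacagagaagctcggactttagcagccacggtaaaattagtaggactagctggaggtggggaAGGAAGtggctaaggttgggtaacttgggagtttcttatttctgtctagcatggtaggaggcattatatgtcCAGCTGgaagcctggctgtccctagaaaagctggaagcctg

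Btbd6, chr12:112976232-112976531, plus strand: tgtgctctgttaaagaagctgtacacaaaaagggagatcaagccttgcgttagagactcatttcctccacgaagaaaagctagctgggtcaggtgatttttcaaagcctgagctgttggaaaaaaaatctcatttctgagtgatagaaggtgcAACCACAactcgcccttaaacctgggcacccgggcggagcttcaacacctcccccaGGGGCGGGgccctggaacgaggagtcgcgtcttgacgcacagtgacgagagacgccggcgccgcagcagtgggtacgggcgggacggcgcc

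Ube2c, chr2:164769679-164769978, plus strand: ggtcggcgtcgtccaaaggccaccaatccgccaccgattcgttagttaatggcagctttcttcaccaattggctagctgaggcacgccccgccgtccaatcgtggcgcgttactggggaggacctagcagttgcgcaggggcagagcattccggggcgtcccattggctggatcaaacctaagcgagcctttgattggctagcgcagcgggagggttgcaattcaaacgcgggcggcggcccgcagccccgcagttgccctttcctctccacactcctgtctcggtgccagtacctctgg

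Wiz, chr17:32389357-32389656, minus strand: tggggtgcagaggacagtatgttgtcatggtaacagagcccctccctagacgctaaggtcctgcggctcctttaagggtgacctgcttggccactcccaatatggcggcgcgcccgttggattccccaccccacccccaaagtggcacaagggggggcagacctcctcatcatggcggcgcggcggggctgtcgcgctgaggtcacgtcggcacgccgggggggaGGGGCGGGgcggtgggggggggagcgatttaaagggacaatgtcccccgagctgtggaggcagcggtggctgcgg

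The member at Il6, an inflammatory cytokine, spanned chr5:30012762-30012986 and covered the first 123 bases of the window. Its AP-1 match at base 2 and its ETS match at base 83 lay inside the member, and its C/EBP match at base 123 and its NF-kB match at base 207 were not inside. This region had a fold enrichment of 3.32 in the knockout and 3.16 in the wild-type 5FU list, and a −log10 p of 3.47 and 3.65. It had no H3K4me1 in any of the 4 HSC lists at 16 weeks and H3K4me1 in 4 of the 6 untreated lists. The member at Gpr84, a receptor for medium-chain fatty acids on myeloid cells, covered all 300 bases, with 3 ETS matches and 1 E-box match. It had a fold enrichment of 3.43 in the knockout and 3.82 in the wild-type 5FU list, carried H3K4me1 in all 6 untreated lists and carried H3K27ac in all 4 HPC lists.

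The member at Btbd6 also covered its whole window, with the RUNX match at base 154. It lay 16912 bp from the nearest PBS region of HSCs although all 4 HPC lists held H3K27ac there. The member at Ube2c, an E2 enzyme of the anaphase-promoting complex, covered 242 bases that held none of the motifs searched. It lay 14417 bp from a PBS region, had no H3K4me1 in any of the 10 lists, and had H3K27ac in all 4 HPC lists. The member at Wiz, a zinc finger partner of the H3K9 methyltransferases G9a and GLP, had the highest wild-type fold enrichment of all members, 6.69, beside 4.31 in the knockout. It overlapped the last 49 bases of its window and lay 110 bp from a PBS region.

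The gained regions were weak and narrow. Their median fold enrichment was 3.11 in the knockout and 3.08 in the wild-type 5FU list, beside 3.43 and 3.49 over all regions of those lists. Their median −log10 p was 3.47 and 3.65, beside 4.21 and 4.79, and their median width 211 and 236 bp, beside 293 and 379 bp. The 28913 regions present in all 4 lists, called retained here, had a median width of 943 bp and a median fold enrichment of 4.82 in the wild-type 5FU list. Of the members, 169 (4.16%) stood in the top 25% of −log10 p in the knockout list and 29 (0.713%) in that of the wild-type list, and 6 stood in the top 25% of both.

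**Figure D1:**
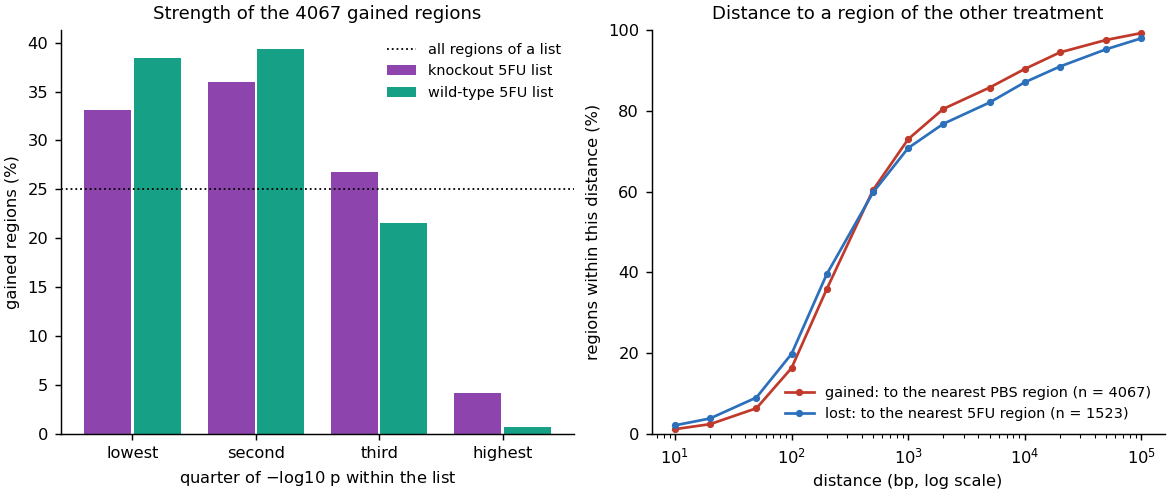
Left: percent of the 4067 gained regions in each 25% step of −log10 p of the knockout 5FU and wild-type 5FU lists, with a dotted line at the 25% that all regions of a list have. Right: cumulative percent of gained regions by distance to the nearest PBS region and of lost regions by distance to the nearest 5FU region, on a log axis. The top step held 4.16% and 0.713% of the gained regions, and 73% of gained and 70.8% of lost regions lay under 1 kb from a region of the other treatment.

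Most members lay close to H3K27ac that was present under PBS. The nearest PBS region was a median of 333 bp away, and 2968 members (73%, interval 71.6 to 74.3%) lay under 1 kb from one. Another 1099 members (27%) lay 1 kb or more away and 391 (9.61%) 10 kb or more. For 611 members (15%) the knockout 5FU region that overlapped them reached over a PBS region itself. Regions lost after 5FU, defined in the same way from the wild-type PBS list, lay under 1 kb from a 5FU region in 70.8% of cases. At the edge of the definition, 258 members under 50 bp from a PBS region had a median −log10 p of 3.65 and a median width of 222 bp. The 442 shared 5FU regions kept out by an overlap of under 50 bp had a median −log10 p of 3.65 and a median width of 213.5 bp.

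The number gained moved with the length of the lists. Beside 4067 gained regions, 1523 of the 58571 wild-type PBS regions (2.6%) were lost in both genotypes. The 5FU lists held more autosomal peaks, 65802 in the knockout and 66420 in wild type, against 50499 and 58571 in the PBS lists. With each list cut to its strongest 50499 peaks, 2083 regions were gained and 2039 lost. Of the 19312 wild-type 5FU regions in neither PBS list, 21.1% were shared with the knockout 5FU list. The overlap with the knockout 5FU list alone (4067 regions) was smaller than that with the wild-type PBS list alone (6102) and larger than that with the knockout PBS list alone (1733). In the shortened lists the same 3 counts were 2083, 4258 and 1614. The share of wild-type 5FU regions that was gained ranged over the 19 autosomes from 5.45% to 7.26%.

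The strongest members by their lower rank in both 5FU lists lay near genes of varied function. The first, in Lpcat1, a lysophospholipid acyltransferase (chr13:73499986-73500323), had a fold enrichment of 5.4 in the knockout and 4.97 in wild type and lay 240 bp from a PBS region. The one in Utrn, which encodes utrophin (chr10:12599477-12600135), had 4.63 and 5.21 and lay 22677 bp from a PBS region, with no HPC H3K27ac. The one in Prc1, a protein of the mitotic spindle midzone (chr7:80299486-80299950), had 4.85 and 4.56 and lay 4329 bp from a PBS region. At Prdm16, a zinc finger factor needed by HSCs (chr4:154588329-154588729), the values were 4.45 and 4.88 at 168 bp from a PBS region. The remaining members among the first 15 lay nearest to 9430015G10Rik, Slc25a16, Rnf24, Wiz, Zfp764, Pde4d, Spdye4c, Gabbr2, Fam53b, Krt80 and Zfp467, with fold enrichments of 3.73 to 9 in the knockout and 3.9 to 6.69 in wild type. The knockout regions at 9430015G10Rik, Slc25a16, Rnf24, Zfp764 and Zfp467 reached over a PBS region, so their knockout values are not of gained H3K27ac alone. The value of 9 belonged to the region at Slc25a16, which was 1414 bp wide and shared 88 bp with the member.

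H3K4me1 was measured separately and took no part in the choice of members. In the knockout, 47.5% of members (interval 45.9 to 49%) overlapped an H3K4me1 peak after 5FU, against 44.6% (43.1 to 46.1%) after PBS, while 49.2% and 48.5% of all wild-type 5FU H3K27ac regions did. In wild type, 81.5% (80.3 to 82.7%) overlapped one after 5FU, against 52.6% (51.1 to 54.1%) after PBS, with 78.6% and 55.5% of all regions. The wild-type 5FU list was much the longest of the 4, with 132050 peaks from 6 libraries over 116 Mb, against 87410 peaks from 4 libraries over 54 Mb after PBS. With the 4 lists cut to equal numbers of peaks the wild-type shares were 70.5% after 5FU, against 49% after PBS.

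Members with H3K4me1 in only 1 of the 2 lists of a genotype give a comparison within each region. In the knockout, 845 members did, of which 481, or 56.9% (53.6 to 60.2%), had it in the 5FU list. The same share was 38.8% (33.5 to 44.4%) for the lost regions, 51.8% (50.4 to 53.2%) for the retained, 51.5% (49.5 to 53.4%) for the 15245 regions of the wild-type 5FU list in none of the other 3 lists, and 51.8% for all wild-type 5FU regions. With lists of equal numbers of H3K4me1 peaks it was 60.8% (57.5 to 64%) for the gained, 43.9% (38.4 to 49.5%) for the lost and 56.1% for all regions. For the retained it was 56.7% (55.3 to 58%) in these equal lists, so the intervals of gained and retained regions overlapped there. For the regions in none of the other 3 lists it was 54.9% (53 to 56.8%). In wild type it was 98% (97.1 to 98.7%) for the gained, 93.3% for the lost and 97.2% (96.9 to 97.5%) for all regions, and 90.9% (89.1 to 92.5%), 80.2% and 88.2% with lists of equal numbers. The regions in none of the other 3 lists gave 97.4% (96.9 to 97.8%) in wild type, and 90.3% (89.3 to 91.2%) with lists of equal numbers, so the intervals of both sets overlap there. The intervals of gained and lost regions did not overlap in either genotype. Those of gained and all regions did not overlap in the knockout and overlapped in wild type in the lists as deposited. All regions include the gained ones, so these 2 sets are not separate. Regions are not replicates of a treatment, and each list is 1 pooled list, so these intervals test no effect of 5FU. Members 1 kb or more from a PBS region gave 62.7% in the knockout and 90.5% in wild type in the equal lists.

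**Figure D2:**
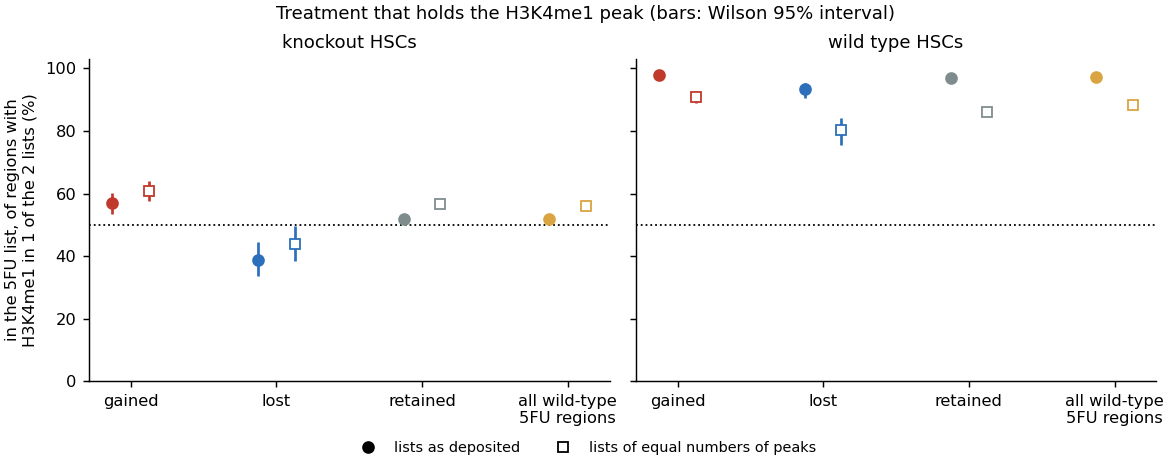
Percent of regions whose H3K4me1 peak was in the 5FU list, among regions with H3K4me1 in only 1 of the 5FU and PBS lists of the genotype, for knockout HSCs (left) and wild-type HSCs (right). Filled circles are the lists as deposited, open squares lists of equal numbers of peaks, bars Wilson 95% intervals and the dotted line 50%. Gained regions stood above lost ones in both genotypes, at 56.9% against 38.8% in the knockout and 98% against 93.3% in wild type.

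H3K4me1 in both 5FU lists and in neither PBS list was found at 170 members (4.18%, interval 3.61 to 4.84%), and in both PBS lists and neither 5FU list at 3. Among lost regions these counts were 31 and 8 of 1523, and among retained regions 754 and 34 of 28913. Among wild-type 5FU regions in none of the other 3 lists they were 452 (2.96%, 2.71 to 3.25%) and 16 of 15245. The 5FU pattern was thus the more frequent in each of these sets, and its share over all wild-type 5FU regions was not counted. Only 1 of the 170 also lacked H3K4me1 in all 6 untreated lists. The strongest of the 170 was the Prc1 member described above. The next lay 53248 bp from Actr3, a subunit of the ARP2/3 actin nucleator, and 47130 bp from a PBS region, with fold enrichments of 4.53 in the knockout and 4.23 in wild type. Those at Slc38a2, an amino acid transporter, and at Arf2 had 3.98 and 5.21, and 3.34 and 3.82. The member inside Nfkb1 (chr3:135637170-135637688), a subunit of NF-kB, had 4.12 and 3.7 and lay 525 bp from a PBS region, which its knockout region reached over.

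In untreated mice of 8 weeks most members carried H3K4me1, at shares near or below those of all regions. It was present at 75.6% of members in knockout HSCs, 74.2% in heterozygous HSCs and 67.8% in wild-type HSCs, with 75.8%, 74.1% and 69.6% of all wild-type 5FU regions. In HPCs it was present at 66.9% of members in the knockout, 68% in the heterozygote and 66% in wild type, with 68.6%, 69.7% and 70.4% of all regions. Members carried it in at least 1 of the 3 HSC lists in 3400 cases (83.6%), in all 6 lists in 1919 (47.2%) and in none of the 6 in 453 (11.1%). All 6 lists held it at 63.4% of retained, 37.4% of lost and 33.2% of the wild-type 5FU regions in none of the other 3 lists. None of the 6 held it at 8.29%, 17.2% and 22.5% of the same sets. These combinations were not counted over all wild-type 5FU regions, and the first was counted for members only. In the single lists the lost regions had lower shares than the members, 56.9% to 67.7%. Among regions in the lowest 25% of −log10 p, 75.3% of members (73.1 to 77.4%) had H3K4me1 in untreated knockout HSCs and 66.7% of the other regions did. In the next 3 steps of 25% these shares were 74.2% and 71.2%, 79.1% and 80.3%, and 62.1% (of 29 members) and 84%. In wild-type HSCs the 4 steps gave 66.3% and 59.8%, 66.1% and 64.7%, 73.8% and 75.3%, and 55.2% and 78%, so the higher share of the members was limited to the weaker regions and turned round in the strongest. No H3K4me1 in any of the 10 lists was seen at 341 members (8.38%), beside 15.4% of lost and 7.42% of retained regions and 19.1% of those in none of the other 3 lists. This share too was not counted over all wild-type 5FU regions.

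H3K27ac in HPCs was less frequent at the members than over all wild-type 5FU regions. In the knockout, 25.8% of members (24.5 to 27.2%) overlapped an H3K27ac peak of IL-1-treated HPCs and 30.8% (29.4 to 32.2%) one of PBS-treated HPCs, with 46.6% and 51.2% of all wild-type 5FU regions. In wild type these shares were 33.2% after IL-1 and 34.9% after PBS, with 52.5% and 55.4% of all regions. The lost regions had 23.8% to 30.2% in the 4 lists, and the retained 75.3% to 81.9%. The wild-type 5FU regions in none of the other 3 lists had lower shares than the members, 14.1% to 22.2%. Region strength went with these shares: in the lowest 25% of −log10 p, 30% of members and 28.7% of the other regions overlapped a peak of wild-type HPCs after IL-1, and among those ranked above 50% and up to 75% of the list 42.3% and 57%. Members with H3K27ac in none of the 4 HPC lists numbered 2197 (54%), beside 59.3% of lost, 12.7% of retained and 69.8% of the wild-type 5FU regions in none of the other 3 lists. Those in all 4 numbered 736 (18.1%), beside 16.8%, 69.6% and 9.15% of the same sets. Shares in none and in all 4 were not counted over all wild-type 5FU regions.

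Few members had HPC H3K27ac that went with IL-1. Its presence in both IL-1 lists and neither PBS list of HPCs was seen at 39 members (0.959%, interval 0.702 to 1.31%), beside 0.722% of lost (0.404 to 1.29%), 0.422% of retained (0.354 to 0.504%) and 0.708% of the wild-type 5FU regions in none of the other 3 lists (0.587 to 0.855%). Presence in both PBS lists and neither IL-1 list was seen at 64 (1.57%), beside 1.51%, 1.77% and 1.25% of the same sets. Neither pattern was counted over all wild-type 5FU regions. Members with HPC H3K27ac in only 1 of 2 lists had it after IL-1 in 32.2% of cases in the knockout and in 43.8% in wild type, beside 29.5% and 37% of all regions. The strongest of the 39 lay in Mpp6, Mpp2, Spred2, an inhibitor of Ras-MAPK signalling, Cdk6, a G1 kinase, and Il4ra, an interleukin receptor chain. The Cdk6 member (chr5:3409259-3409530) had fold enrichments of 3.43 in the knockout and 3.33 in wild type. The Il4ra member (chr7:125560835-125561368) had 4.2 and 3.06.

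**Figure D3:**
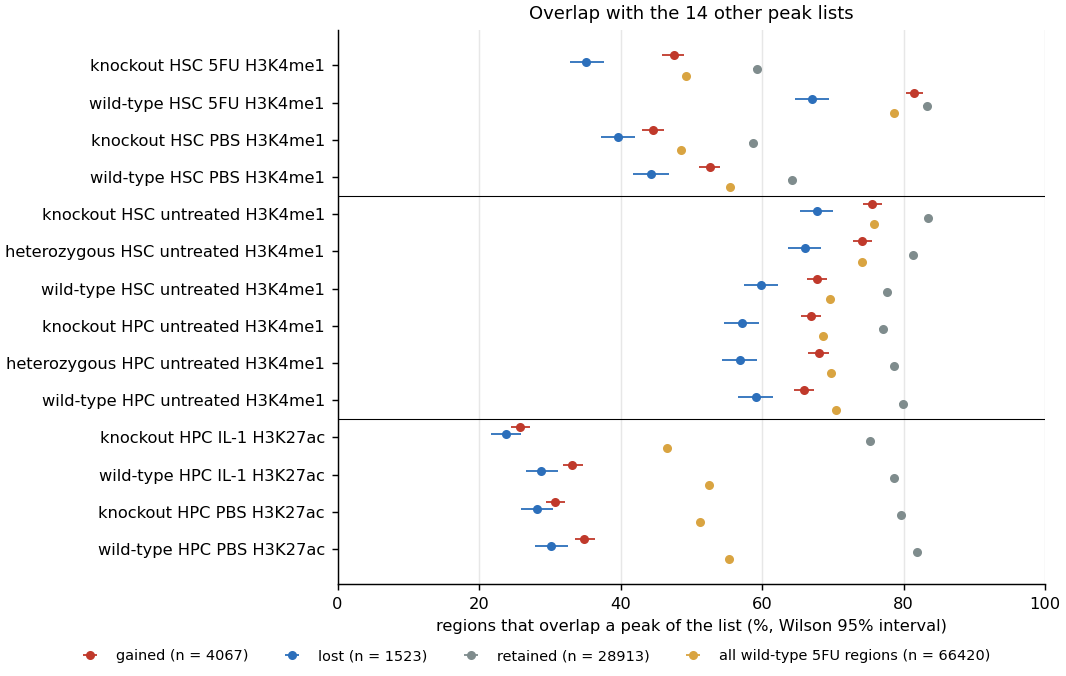
Percent of gained, lost, retained and all wild-type 5FU H3K27ac regions that overlap a peak of each of 14 other lists, with Wilson 95% intervals. H3K4me1 lists at 16 weeks are at the top, untreated H3K4me1 lists in the middle and HPC H3K27ac lists at the bottom. Gained regions lie near all regions in the untreated H3K4me1 lists (66% to 75.6%) and well below them in the HPC lists (25.8% to 34.9%).

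The members lay near gene ends less often than all regions did. Within 1 kb of an annotated gene end lay 365 members (8.97%, interval 8.13 to 9.89%), beside 21.1% of all wild-type 5FU regions, 34.9% of the retained and 7.16% (6.76 to 7.58%) of those in none of the other 3 lists. Inside genes but over 1 kb from an end lay 2398 (59%), beside 49.1% of all regions, and outside genes 1304 (32.1%), beside 29.8%. At 50 kb or more from any gene lay 466 (11.5%), beside 9.34%. Of the 3923 members on chromosomes with promoter windows, 87 (2.22%) overlapped one, beside 13.5% of all regions and 1.73% of those in none of the other 3 lists. These 87 differed from the other members in other marks: 57.5% had H3K27ac in all 4 HPC lists and 32.2% had no H3K4me1 in any list, beside 17.3% and 7.77% of the other members. The same shares were not counted for all wild-type 5FU regions that overlap a promoter window. Whether the difference is particular to the members was therefore not tested.

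The 95 promoter windows that members overlapped belong to 87 genes, so some share bases, and motifs were searched on both strands. They had a median GC content of 56% and a median of 12 CpGs, beside 61.3% and 22 in 9649 windows of retained regions and 53% and 7 in all 31396 windows. The RUNX motif (TGTGGTT) was in 14 windows (14.7%), beside 3.88% of retained and 5.32% of all windows. AP-1 (TGACTCA) was in 11 (11.6%), beside 3.52% and 5.26%. The GATA factor motif AGATAA was in 11 (11.6%), beside 5.85% and 11.2%, and ETS (AGGAAG, or the longer CCGGAAGT) in 32 (33.7%), beside 40.3% and 37.8%. SP/KLF (GGGGCGGG) was in 22 (23.2%), beside 30.2% and 16.7%, and NF-kB in 1 (1.05%), beside 1.76% and 1.45%. The E-box (CAGCTG, with the CACGTG form also counted) was in 18 (18.9%), beside 23% and 22.3%. C/EBP was in 3 (3.16%), beside 0.995% and 1.19%. CRE, ETS-IRF, PU.1 (which also counts as ETS), ISRE, CTCF and p53 sites were each in 1 to 5 windows, and STAT and HOXA9-MEIS in none. Inside the members themselves RUNX matched in 9 windows and AP-1 in 6, with both Btbd6 windows among the first and Il6 among the second. Overlapping windows held the same RUNX site at Antkmt, Btbd6 and Miga2 and the same AP-1 site at Gm29917. The windows of F11r and Gm26641 also held the same AP-1 site, outside the member. There were thus fewer sites than windows for both motifs. Matches inside other regions were not counted, so the counts inside members have no comparison. A match is a string of letters and does not show that a factor was bound.

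Near genes, 5270 of 20661 autosomal protein-coding genes (25.5%) had at least 1 member within 50 kb, 127 had 5 or more and 10 had 10 or more. Those 10 were Sgms1 (15 members), Tgfbr3 (15), Septin9 (13), Etv6 (13), Trappc9 (12), Sec14l1 (11), Mecom (11), Arid1b (10), Ikzf2 (10) and Angpt1 (10). Such counts rise with the number of regions near a gene, so the share is the better measure. Among the 486 genes with at least 30 wild-type 5FU regions within 50 kb, the median share gained was 6.11%, with quartiles of 2.86% and 9.25%. Sec14l1 had the highest share, 30.6% (11 of 36), and Tgfbr3 the fourth highest, 23.8% (15 of 63). In the lists shortened to 50499 peaks they had 30.8% (8 of 26) and 23.4% (11 of 47), while 2083 of all 50499 regions were gained. With peaks of a −log10 q of at least 2 in all lists, Sec14l1 and Septin9 had no gained region, Tgfbr3 had 2 of 32 regions (6.25%), Mecom had 9 of 58 (15.5%) and Etv6 also 9 (8.74%). The high shares of Sec14l1 and Tgfbr3 thus rest on peaks under that threshold. Over the whole list 1024 regions were gained at it, and the share that they make up was not counted.

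The densest run of members lay at Sec14l1, a lipid-binding protein that restrains RIG-I signalling. Within chr11:117149944-117155187, 8 members lay in 5.24 kb, and each was 10549 to 15292 bp from the nearest PBS region. Joining members no more than 2 kb apart gave 3374 members alone, 5 runs of 4, 27 of 3, 292 of 2, and this run of 8. Their fold enrichments were 2.47 to 3.76 in the knockout and 2.85 to 3.98 in wild type. In the knockout, 6 of the 8 had H3K4me1 after 5FU, against 3 after PBS, and in wild type 7 had it after 5FU, against 2 after PBS. Of all 36 wild-type 5FU regions within 50 kb of Sec14l1, 22 had it in the knockout after 5FU, against 17 after PBS. In wild type 28 of the 36 had it after 5FU, against 17 after PBS. No HPC list held H3K27ac at any of the 8, and the HPC lists held it at 5 to 8 of the 36. No untreated list held H3K4me1 at 4 of the 8. The other runs of 4 lay nearest to Angpt1, Fli1, Hoxb6, Rasgef1c and Tgfbr3, each with a member under 1 kb from a PBS region. All 8 also lie within 50 kb of Septin9 and are counted there too. These runs were joined after the values were seen.

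At Tgfbr3, the type III receptor that presents TGF-beta ligands, all 15 members lay inside the gene (chr5:107106567-107289629), spread over 91.7 kb. Their fold enrichments were 2.65 to 5.51 in the knockout (median 3.65) and 2.78 to 3.9 in wild type (median 3.06). The 5.51 belonged to a knockout region 1489 bp wide at a member of 259 bp. A value of 4.45 belonged to one 7117 bp wide at a member of 292 bp, so both describe more than the member. No region within 50 kb of Tgfbr3 was lost. In the knockout, 11 of the 15 had H3K4me1 after 5FU, against 5 after PBS, and in wild type all 15 had it after 5FU, against 4 after PBS. Of all 63 wild-type 5FU regions near the gene, 41 had it in the knockout after 5FU, against 32 after PBS. In wild type 60 of the 63 had it after 5FU, against 32 after PBS. Of the 170 members with H3K4me1 in both 5FU lists and neither PBS list, 6 lay here, and no other gene had more than 2 of them within 50 kb. Untreated HSCs had H3K4me1 at 12 of the 15 in the knockout, 10 in the heterozygote and 8 in wild type, and untreated HPCs at 1, 0 and 0. The 16 retained regions near the gene had it in HPCs at 7, 9 and 9, and all 63 regions at 16, 19 and 19. No HPC H3K27ac list overlapped any of the 15, and 3 to 4 of the 16 retained regions did overlap one. Each HPC H3K27ac list overlapped 4 of all 63 regions, so such overlap was rare near this gene as a whole.

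**Figure D4:**
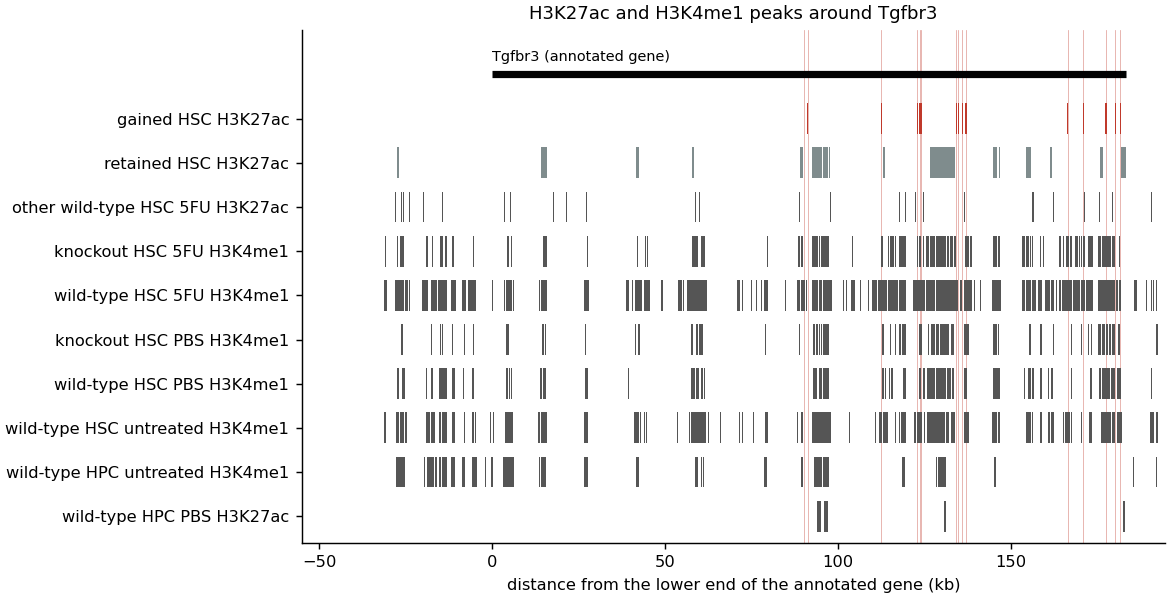
Peaks within 50 kb of Tgfbr3, by distance in kb from the lower end of the annotated gene (black bar, strand not given in the gene table used). Rows show gained, retained and other wild-type 5FU H3K27ac regions of HSCs, then the lists named at the left, and thin red lines carry the 15 gained regions down the page. The gained regions lie beside retained ones towards the higher coordinates of the gene, where both 5FU H3K4me1 rows are fuller than the PBS rows and the HPC H3K27ac row holds few peaks.

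Other genes with many members differed in these marks. Mecom, which encodes the HSC transcription factor EVI1, had 11 members of 88 regions (12.5%), with fold enrichments of 2.06 to 9.99 in the knockout and 2.06 to 3.82 in wild type. The 9.99 belonged to a knockout region 2331 bp wide at a member of 152 bp. H3K4me1 was present at 2 of the 11 in the knockout after 5FU, against 3 after PBS, and at 10 in wild type after 5FU, against 6 after PBS. Over all 88 regions these counts were 54 and 49 in the knockout, and 80 and 58 in wild type. All 11 had H3K4me1 in untreated knockout HSCs, and 10 had no HPC H3K27ac. Of the 88, 79 had H3K4me1 in untreated knockout HSCs, and each HPC list held H3K27ac at only 14 to 16. Etv6, an ETS repressor needed by adult HSCs, had 13 members of 154 regions (8.44%), each under 1 kb from a PBS region and each with H3K27ac in at least 1 HPC list. Wild-type HPCs after IL-1 had H3K27ac at all 13, and at 128 of the 154. Ikzf2, which encodes Helios, had 10 of 50 (20%), 6 of them 1 kb or more from a PBS region. Angpt1, a ligand of the receptor TEK, had 10 of 52 (19.2%), 9 of them without HPC H3K27ac, and the HPC lists held H3K27ac at 9 to 19 of the 52. In the lists shortened to 50499 peaks these genes had fewer gained regions: Mecom 5 of 73 (6.85%), Etv6 7 of 107 (6.54%), Ikzf2 4 of 39 (10.3%) and Angpt1 3 of 35 (8.57%). The whole wild-type 5FU list then had 2083 of 50499 regions gained, so its share fell too. With a −log10 q of at least 2, Angpt1 had none of 24 and Ikzf2 6 of 31 (19.4%).

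The gene lists are described by the share of the wild-type 5FU regions within 50 kb of their genes that was gained, which was 5.98% over all protein-coding genes. In this window HSC identity genes had the highest share of the 18 lists, 74 of 814 regions (9.09%, interval 7.3 to 11.3%), and 12 regions were lost there (1.82%, beside 2.57% over all genes). Within 10 kb TGF-beta and BMP genes had the highest share, 36 of 305 (11.8%, 8.65 to 15.9%), and HSC identity genes had 61 of 649 (9.4%, 7.39 to 11.9%), beside 5.97% over all genes. Of the 36, 15 lay inside Tgfbr3, and the share without that gene was not counted within 10 kb. Of the 30 HSC identity genes 18 (60%) had a member within 50 kb, against 25.5% of all genes. Over the 18 lists this share ran from 12% for genes silent in blood to 60.7% for cytokine receptor and JAK-STAT genes, with 45.5% for housekeeping genes. As a count per gene it rises with the number of regions nearby, so it does not set HSC identity genes apart. Hoxb5, a homeobox gene of long-term HSCs, had 6 of 18 regions, Slamf1, which encodes CD150, 5 of 17, Mllt3, an HSC maintenance factor, 8 of 47, Vwf, the von Willebrand factor, 5 of 32 and Tal1 3 of 19. Runx1, Lyl1, Kit and Hlf had 1 member each, of 37, 45, 29 and 18 regions.

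TGF-beta and BMP genes had 42 of 481 regions gained (8.73%, 6.52 to 11.6%), of which 15 were those of Tgfbr3. Without Tgfbr3 the share was 27 of 418 (6.46%, 4.48 to 9.23%), while the HSC identity list without Mecom had 63 of 726 (8.68%, 6.84 to 10.9%). The activin receptor gene Acvr1b had 6 of 31, and the signal transducers Smad3 and Smad1 had 4 of 46 and 3 of 28. The inhibitory genes Smad7 and Bambi had 2 members each. Megakaryocyte and erythroid genes had 31 of 368 (8.42%, 6 to 11.7%) and also the highest share lost, 4.42%. Without Fli1 they had 22 of 280 gained (7.86%, 5.25 to 11.6%), and within 10 kb 19 of 214 (8.88%, 5.76 to 13.4%). Both intervals hold the share of all genes. Fli1, an ETS factor of megakaryocytes, had 9 of 88 and Nfe2 6 of 31. Adhesion and homing genes had 26 of 353 (7.37%) and lymphoid genes 21 of 319 (6.58%), 8 of them at Bcl11a.

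The inflammatory and stress lists lay near or below the share of all genes. NF-kB and IL-1 response genes had 19 of 348 gained (5.46%, 3.52 to 8.37%), with 12 of 30 genes having a member, and 3 regions lost. Irak3, which restrains IL-1 receptor signalling, had 3 of 21, Rela and Nfkb1, which encode NF-kB subunits, 2 each, and the cytokine genes Il1b and Il6 1 each. Interferon response genes had 12 of 285 (4.21%), and AP-1 and immediate early genes 13 of 303 (4.29%). At Myc and Dusp1 the knockout region was strong, with a fold enrichment of 8.35 and 8.02 beside 3.16 and 3.66 in wild type, and it reached over a PBS region. The p53 and DNA damage genes had 15 of 239 (6.28%), among them Gadd45b with 3 of 12 and Gadd45a with 2 of 8. Cell cycle genes had 18 of 291 (6.19%), 6 of them at Cdk6 (of 27). Quiescence genes had the lowest share in this window, 7 of 252 (2.78%, 1.35 to 5.62%), with 2 members at Foxo3. Within 10 kb they had 5 of 163 (3.07%, 1.32 to 6.98%), an interval that holds the 5.97% of all genes. Lower shares within 10 kb were those of interferon response genes (2.14%), p53 and DNA damage genes (2.2%) and genes silent in blood (0 of 9 regions).

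Cytokine receptor and JAK-STAT genes had 24 of 440 (5.45%), with 5 at Stat5a that Stat5b shares. Granulocyte and monocyte genes had 13 of 235 (5.53%), H3K4 methylation and enhancer complex genes 9 of 151 (5.96%), and housekeeping genes 14 of 281 (4.98%). Mature T, NK and B cell markers had 8 of 123 (6.5%), stroma and endothelium markers 11 of 196 (5.61%) and genes silent in blood 3 of 50 (6%). Of the reference genes, Cdkn1a and Il1r1 had 1 member each and Cebpa, Spi1 and Nfkbia had none.

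**Figure D5:**
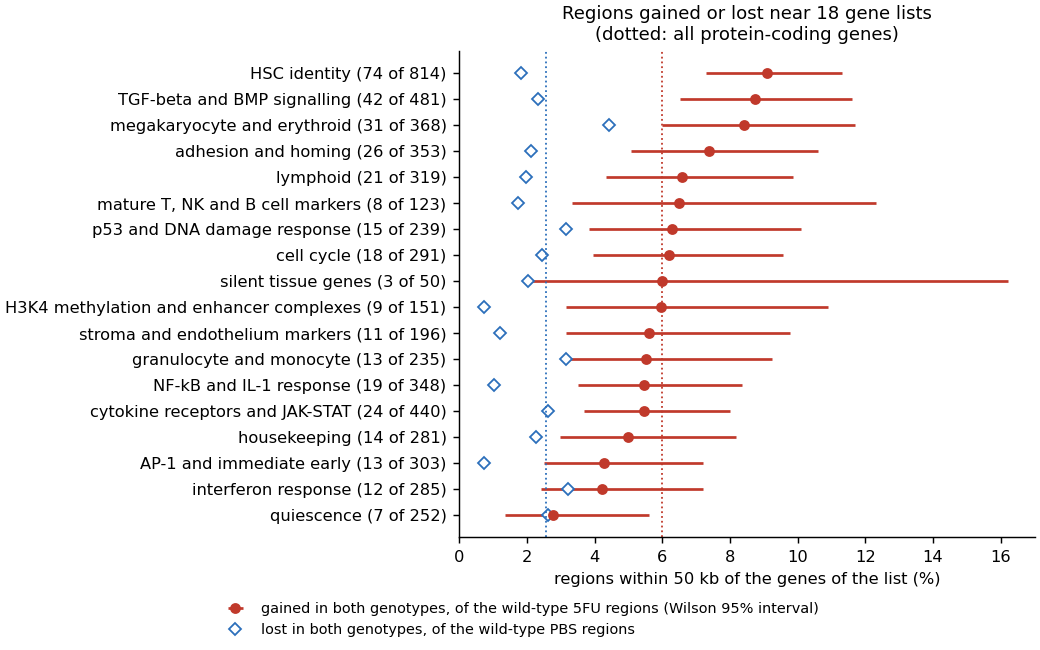
Percent of wild-type 5FU regions within 50 kb of the genes of each of 18 lists that were gained in both genotypes (red, Wilson 95% interval, counts beside the names), and percent of wild-type PBS regions there that were lost (blue). Dotted lines give both shares for all protein-coding genes, 5.98% gained and 2.57% lost. HSC identity (9.09%), TGF-beta and BMP signalling (8.73%) and, by a small margin, megakaryocyte and erythroid genes (8.42%) have intervals above the dotted red line, and quiescence (2.78%) has one below it. Without Tgfbr3 the TGF-beta and BMP share is 6.46%, with an interval that holds 5.98%. Without Fli1 the megakaryocyte and erythroid share is 7.86%, and its interval holds 5.98% too. Within 10 kb, which is not drawn, the quiescence share is 3.07%, with an interval (1.32 to 6.98%) that holds the 5.97% of all genes.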

How the data were processed

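ChIPmentation peak lists of 18 groups, 63 libraries in all, were analysed, and 6 input libraries had no list here. Novoalign, MACS2 and the build mm10 (GRCm38) are named in the submitters' processing notes, without versions. Each deposited list was pooled over the libraries of its group, per the labels, so depth and replicate spread are unknown. For each peak the authors deposited a fold enrichment (a linear ratio over background) and −log10 p and −log10 q values, and these values served within a list alone, for describing, ordering or thresholding its peaks.

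Peaks of the 19 autosomes that overlapped or touched were merged, which joined none. Overlap meant at least 1 bp. Percentiles rank −log10 p within a list, and members were ranked by the lower of both 5FU percentiles. Genes were RefSeq protein-coding genes (GRCm38.p6) with a window of 50 kb on each side, and the gene table has no strand. Of 437 distinct genes on 18 lists, 424 matched. Promoter windows reached 250 bp before to 50 bp after a start and were searched on both strands. They cover chromosomes that hold 3923 of the members.

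Genes were named by a rule: nearest to the 15 strongest members, the 10 genes with most members, up to 4 genes per list, 8 reference genes, and nearest to the 5 strongest members with H3K4me1 in both 5FU lists only or HPC H3K27ac in both IL-1 lists only. Names outside it, among them Il6, Gpr84, Btbd6, Ube2c and members of lists given by their counts, were chosen after values were seen. The members and lists were chosen with earlier results of these data known. Wilson intervals have 95% confidence. Calculations used Python 3.11.15, pandas 2.3.3, numpy 2.4.6 and scipy 1.17.1, and the set definitions were tested on simulated data. The alternatives varied overlap, list length, peak threshold, merging, distance and gene window.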

Additional observations from a re-analysis of the deposited data

How the results depend on the processing

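No paired analysis was possible because each group has 1 pooled peak list, and for the same reason no replicate could be left out. A motif search around peak summits was not run, since no genome was used here. The number gained, 4067, was 1024 with a −log10 q of at least 2 in all 4 lists, 6 when both 5FU regions stood in the top 25% of their list, 2083 with equal lists, 1099 with no PBS region within 1 kb and 1875 with peaks within 500 bp merged. Values follow in the order knockout 5FU, wild-type 5FU, knockout PBS and wild-type PBS for H3K4me1 at 16 weeks. They were 41.2%, 76.9%, 38.1% and 45.4% with an overlap of at least 50% of the shorter region. They were 33.3%, 66.7%, 50% and 33.3% for the 6 strongest members, and 39.1%, 76.1%, 36% and 43.8% for summits inside a peak, an alternative chosen after seeing the data. Equal lists gave 70.5% for wild-type 5FU, 42.9% for knockout PBS and 49% for wild-type PBS. Members 1 kb or more from a PBS region gave 44.5% for knockout 5FU, 40.3% for knockout PBS and 48.7% for wild-type PBS.

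Of members with H3K4me1 in 1 list of a genotype, the share in 5FU was 60.8% in the knockout and 90.9% in wild type with equal lists. It was 62.7% and 90.5% with equal lists 1 kb or more from a PBS region, also chosen after seeing the data. It was 0% and 100% among the 6 strongest, where the knockout direction reversed on too few regions to read. Untreated H3K4me1 fell with the 50% overlap to 70.1% (knockout), 67.9% (heterozygous) and 61.1% (wild type) in HSCs and to 60.8%, 62.3% and 60.5% in HPCs, and equal lists gave 71.7% and 71.6% for knockout and heterozygous HSCs. HPC H3K27ac with the 50% overlap was 22% and 28.8% after IL-1, against 26.4% and 29.7% after PBS (knockout and wild type in each pair), and 20.3% and 24.4%, against 20.7% and 23.8%, 1 kb or more from a PBS region. Equal lists gave 31.5% after IL-1 and 32.7% after PBS in wild type. The share in IL-1 of those in 1 HPC list was 48.1% in the knockout and 52.7% in wild type 1 kb or more from a PBS region, where the wild-type direction reversed. Within 5 kb of a gene end lay 24.9%, beside 35.5% of all regions. The cause of these shifts was not tested.

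Over all results 77 values moved, 2 reversed and 51 did not. Depth is unknown, so whether a region without a peak lacked the mark or lacked reads cannot be told apart. Intervals take regions as independent, and neighbouring regions are not.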
